A study of Rattus norvegicus with 2 samples.

Results

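The genes of the AMPA and NMDA receptors encode the channel subunits that carry most fast excitatory transmission in cortical neurons. Of the 25628 genes in the count table, 9 are described: Gria1, Gria2, Gria3 and Gria4 for the AMPA receptor and Grin1, Grin2a, Grin2b, Grin2d and Grin3a for the NMDA receptor. They were chosen by name; the rule holds no measured value, but it was set with earlier results of these data known. P180, the product of Rrbp1, is a ribosome-binding protein of the endoplasmic reticulum (ER), and RNA immunoprecipitation followed by sequencing (RIP-seq) was used to ask which mRNAs stay with it. Rat primary cortical neurons carried either P180 with GFP and a biotin acceptor tag attached (P180-GFPbio) or, as control, the same tagged GFP without P180 (GFPbio), and the biotinylated protein was pulled down on streptavidin together with bound RNA. These are named here the P180 pull-down and the GFP pull-down. For each, 1 library was mapped to a sample and analysed. The count table has 2 further columns whose names read as second replicates; they could be tied to none of the samples used here and were not used. Thus no difference has a replicate check and no p-value is given.

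Both receptors are built from subunits that start at the ER. Each subunit carries a signal sequence, is threaded into the ER membrane while it is translated, is glycosylated in the lumen and assembles there with its partners before it leaves for the dendrite or the axon. GluA2, the product of Gria2, usually makes an AMPA receptor impermeable to calcium. GluN1, the product of Grin1, is part of every conventional NMDA receptor, and the GluN2 and GluN3 subunits set its kinetics, magnesium block and partners. In the forebrain GluN2B dominates early in development and GluN2A increases later.

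Depth was 6298343 counts in the P180 pull-down, where 13407 genes had a count, and 8428358 in the GFP pull-down, where 9345 had one. Counts were divided by size factors of 0.846 and 1.18, which gives scaled counts, and a ratio was computed for the 11468 genes whose counts in both pull-downs summed to 10 or more (the genes tested). For a gene at 0, the fold was taken against a floor of 3 counts and is called a bound. All intervals are exact 95% intervals for counting error alone. If reads amplified from the same molecule were each counted, which is not known here, the intervals are too narrow. Rrbp1 had 2541 counts in the P180 pull-down and 1334 in the GFP pull-down, 2.66-fold higher after scaling (2.49 to 2.85), and the tag shared by both constructs, EGFP_avitag, had 63981 and 190058 counts. The ratio of Rrbp1 was not distinctive, since only 64.6% of the genes tested had a lower one. A count at the 3′ end of Rrbp1 need not come from the construct.

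The receptor subunits differed among themselves. Gria4 and Grin2a were counted in the P180 pull-down only, Grin2b was more than 2-fold lower there, and the other 6 subunits differed by less than 2-fold. The counting intervals of Grin2b, Gria1 and Grin2d included 2-fold, so these calls hold for the ratios themselves. By the same factor, 2 of the 9 members were higher in the P180 pull-down and 1 was lower, where over all genes tested 40.6% were higher and 19.9% lower. The count of 2 rests on the 2 members without a count in the GFP pull-down. They passed the minimum through the P180 pull-down alone and so had to differ. The median log2 ratio of the members, with 1 scaled count added to each library, was -0.40 against 0.45 over all genes tested. With the members at 0 set to their bound it was -0.41. Of the genes tested, 20.4% were at 0 in the GFP pull-down. Over genes counted in both whose mean scaled count reached 100, the median was -0.05. With only that mean required, and size factors recomputed from those genes, the medians were 0.07 for the 6 members left and 0.02 for all such genes. The new factors alone raised every log2 ratio by 0.05.

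**Figure D1:**
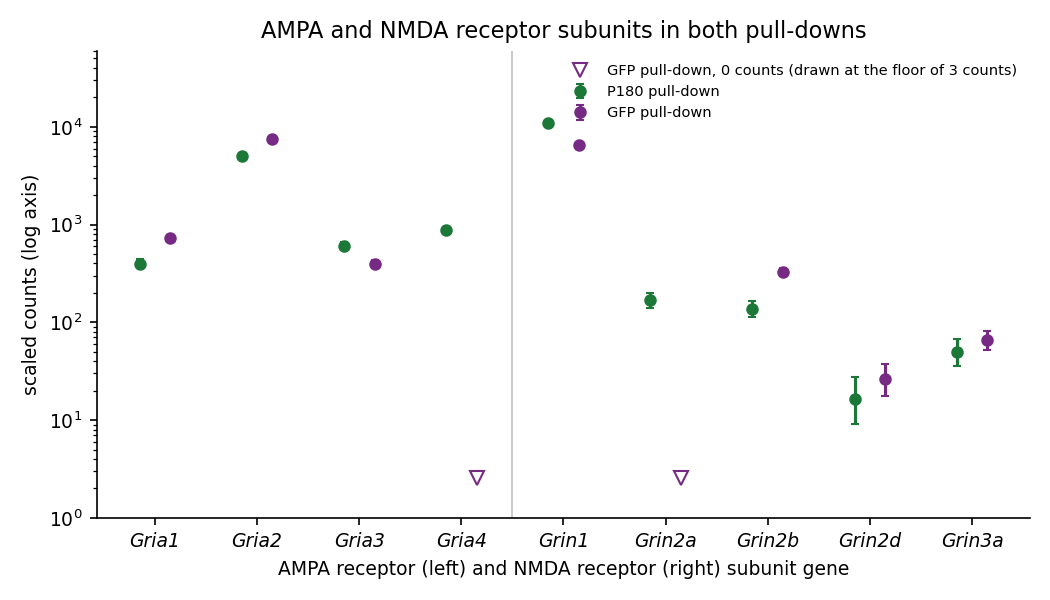
Scaled counts (log axis) of each subunit gene in the P180 pull-down (green) and the GFP pull-down (purple), 1 library each, with exact 95% Poisson intervals. The open triangles mark Gria4 and Grin2a, which had 0 counts in the GFP pull-down and are drawn at the floor of 3 counts.

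Gria4, which encodes GluA4, had 740 counts in the P180 pull-down and 0 in the GFP pull-down. The scaled count was 875 (813 to 940) in the P180 pull-down and at most 3.12, the upper Poisson limit of a count of 0, in the GFP pull-down, so the intervals lay far apart. Against the floor of 3 counts Gria4 was 345-fold higher in the P180 pull-down, and the lower limit of the counting interval was 280. At the level of the P180 pull-down, the GFP pull-down would have held 1034 counts of Gria4. Over all 11468 genes tested, 2343 had no count in the GFP pull-down and 120 none in the P180 pull-down. Such a gap was rarer for a gene counted so often. The rate that follows counts Gria4 itself and is no test. Of 1079 genes with at least 500 and fewer than 1000 counts in the P180 pull-down, 3 (0.278%, 0.0574 to 0.810) had none in the GFP pull-down, and Gria4 was one of them, with the proteoglycan gene Sdc4 and the transporter gene Slc12a9. Sdc4 had 822 counts in the P180 pull-down, more than Gria4. Among 1054 genes with 1000 counts or more there, only Yars1, a tRNA synthetase gene with 1011, had none in the GFP pull-down. These genes were named after their values were seen.

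Gria1, which encodes GluA1, the subunit whose phosphorylation and insertion are best known from long-term potentiation, had 338 counts in the P180 pull-down and 865 in the GFP pull-down. Scaled, this was 400 (358 to 444) against 732 (684 to 782), a log2 ratio of -0.87 (-1.06 to -0.69). Gria1 was thus lower in the P180 pull-down by less than 2-fold, although its interval included 2-fold. The call depended on the scaling, since with total counts taken without the mitochondrially encoded genes and EGFP_avitag the log2 ratio was -1.11.

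Gria2 had 4290 counts in the P180 pull-down and 8934 in the GFP pull-down. The scaled count was 5071 (4920 to 5225) against 7559 (7403 to 7717), and the log2 ratio was -0.58 (-0.63 to -0.52). Gria3, which encodes GluA3, went the other way with 514 and 470 counts, or 608 (556 to 662) against 398 (362 to 435) after scaling. Its log2 ratio was 0.61 (0.43 to 0.80). Within one receptor family, Gria1 and Gria2 were therefore lower and Gria3 and Gria4 higher in the P180 pull-down.

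Grin1 had the most counts of the 9 genes in the P180 pull-down. It had 9366 counts there and 7649 in the GFP pull-down, scaled counts of 11070 (10847 to 11297) and 6471 (6327 to 6618), and a log2 ratio of 0.77 (0.73 to 0.82). Grin1 was higher in the P180 pull-down, by 1.71-fold (1.66 to 1.76).

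The NMDA receptor subunits that join GluN1 differed more. Grin2a, which encodes GluN2A, had 142 counts in the P180 pull-down and 0 in the GFP pull-down, a scaled count of 168 (141 to 198) against at most 3.12. Against the floor it was 66.1-fold higher, with a lower counting limit of 53.1. A gap of this kind was more common at this depth, since 215 of 1913 genes with at least 100 and fewer than 200 counts in the P180 pull-down (11.2%, 9.86 to 12.7) had none in the GFP pull-down. At the level of the P180 pull-down, Grin2a would have had 198 counts in the GFP pull-down.

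Grin2b, which encodes GluN2B, had 116 counts in the P180 pull-down and 389 in the GFP pull-down. Scaled, this was 137 (113 to 164) against 329 (297 to 363), a log2 ratio of -1.26 (-1.58 to -0.96). It was the member with the lowest ratio, and 16.1% of all genes tested had a lower one. Its paralog Grin2a, as described, was counted in the P180 pull-down only.

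Grin2d, an NMDA receptor subunit gene known from interneurons and the developing brain, had 14 counts in the P180 pull-down and 31 in the GFP pull-down. Its log2 ratio was -0.66 with an interval of -1.69 to 0.29. Grin3a, which encodes a subunit that lowers the calcium permeability of the receptor, had 42 and 78 counts and a log2 ratio of -0.41 (-0.99 to 0.15). A difference was not detectable for either gene at this depth, and the intervals allow Grin2d to be up to 3.22-fold lower in the P180 pull-down and Grin3a up to 1.98-fold lower.

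**Figure D2:**
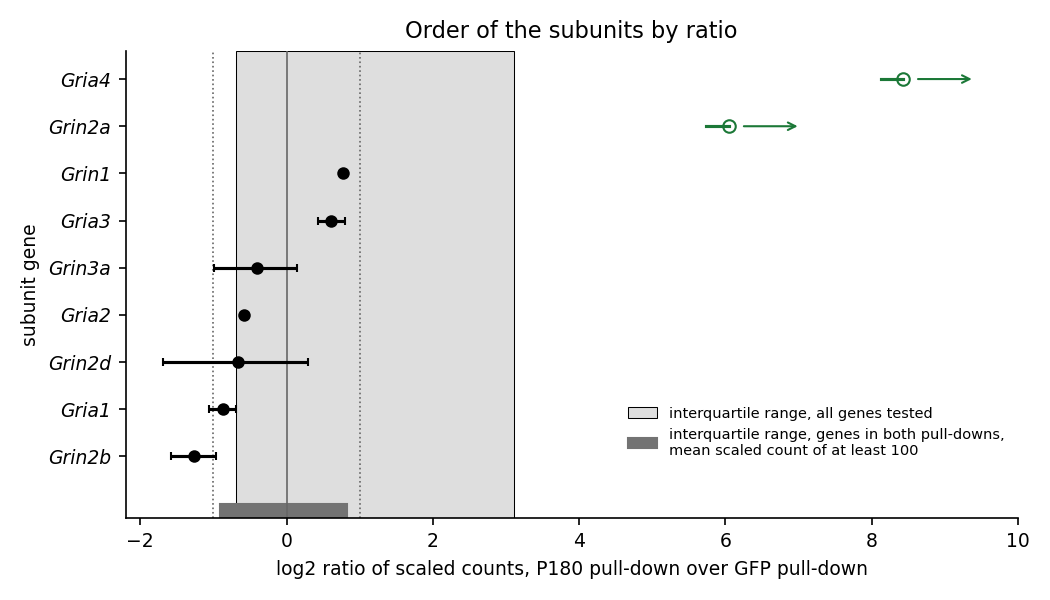
Log2 ratio of scaled counts, P180 pull-down over GFP pull-down, for each subunit with its exact 95% counting interval, ordered by ratio or bound. Open circles with arrows are bounds for Gria4 (8.43) and Grin2a (6.05), the shaded band spans the interquartile range of all genes tested (-0.70 to 3.11) and the dark bar that of genes counted in both pull-downs whose mean scaled count reached 100 (-0.91 to 0.83). Both interquartile ranges were taken from ratios with 1 scaled count added to each library, whereas the points have no such addition. Dotted lines mark 2-fold.

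From the lowest to the highest, the ratios ran in the order Grin2b, Gria1, Grin2d, Gria2, Grin3a, Gria3 and Grin1, with Grin2a and Gria4 above them as bounds that cannot be ranked against each other. Each pair of members was also compared by the odds ratio of their counts, which does not depend on how the libraries are scaled. The 15 of 36 pairs that hold Gria4 or Grin2a are left aside, since these had to differ. Of the 21 pairs of members counted in both pull-downs, 14 had a counting interval that left out 1 and 7 had one that included it. Intervals this narrow leave out 1 for most genes: that of the ratio itself did so for 7 of the 9 members and for 86.9% of all genes tested. The 7 pairs were Grin2d with Gria1, Gria2, Grin2b and Grin3a, Grin3a with Gria1 and Gria2, and Gria3 with Grin1 (odds ratio 0.89, 0.78 to 1.02). Neighbours in the order that could be told apart beyond counting error were Grin2b and Gria1, where the odds ratio of Gria1 to Grin2b was 1.31 (1.02 to 1.69), and Grin3a and Gria3, where that of Gria3 to Grin3a was 2.03 (1.35 to 3.09). Library-to-library variation is not part of these intervals.

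Among the 7 members counted in both pull-downs the log2 ratios stayed between -1.26 and 0.77. The mean scaled count reached 100 for 5 of them, and of those 5, 0 were higher by 2-fold or more and 1, Grin2b, was lower. Among 6578 genes with counts in both and the same minimum, 21.5% were higher and 22.9% lower by that factor. The ratios of 4 of the 5 (Gria1, Gria2, Gria3 and Grin1) lay within the interquartile range of these genes.

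The make-up of each receptor family differed between the libraries. The shares given for this are shares of counts, not of molecules, because the 3′ tag of each gene may be read with its own efficiency, so each is compared between pull-downs only. Gria2 took 72.9% (71.8 to 74.1) of the AMPA subunit counts in the P180 pull-down and 87.0% (86.3 to 87.6) in the GFP pull-down. Gria4 took 12.6% (11.7 to 13.5) in the P180 pull-down and 0 of 10269 counts in the GFP pull-down, for which the exact interval reaches up to 0.0359%. The share of Gria3 was 8.74% (8.03 to 9.49) against 4.58% (4.18 to 5.00), and that of Gria1 5.75% (5.17 to 6.37) against 8.42% (7.89 to 8.98). These intervals cover counting error only.

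Grin1 took 96.8% (96.4 to 97.1) of the NMDA subunit counts in the P180 pull-down and 93.9% (93.3 to 94.4) in the GFP pull-down. Grin2a made up 1.47% (1.24 to 1.73) of them in the P180 pull-down, where its share was close to that of Grin2b at 1.20% (0.991 to 1.44). In the GFP pull-down Grin2b had 4.77% (4.32 to 5.26) and Grin2a 0 of 8147 counts, for which the exact interval reaches up to 0.0453%. The share of Grin3a was 0.434% (0.313 to 0.586) in the P180 pull-down and 0.957% (0.758 to 1.19) in the GFP pull-down, and that of Grin2d 0.145% (0.0791 to 0.243) and 0.381% (0.259 to 0.540). Grin1 held most of the family total and was itself higher in the P180 pull-down, which lowers the shares of the others there.

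**Figure D3:**
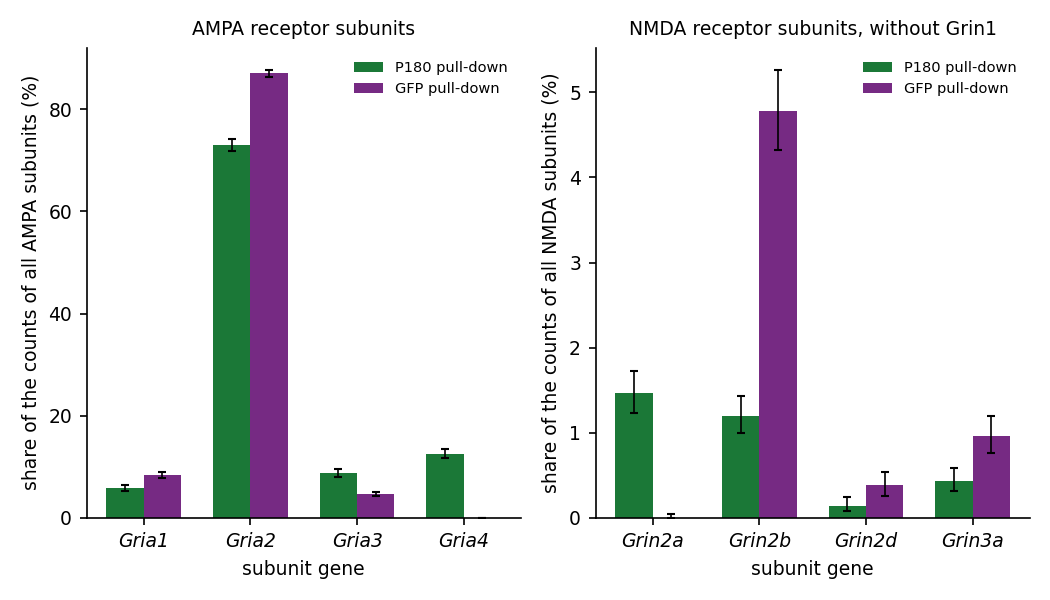
Share of each subunit in the counts of its receptor family (%), P180 pull-down in green and GFP pull-down in purple, with exact 95% binomial intervals. Grin1 is left out of the NMDA panel, where it took 96.8% and 93.9%; Grin2a and Gria4 have no purple bar because they had 0 counts in the GFP pull-down.

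Summed, the AMPA receptor subunits had 5882 counts in the P180 pull-down and 10269 in the GFP pull-down, and the log2 ratio of the sums was -0.32 (-0.37 to -0.28). Without Gria4 it was -0.52 (-0.56 to -0.47). The NMDA receptor subunits had 9680 and 8147 counts and a log2 ratio of 0.73 (0.69 to 0.77), in which Grin1 held most counts and which stood at 0.71 (0.67 to 0.75) without Grin2a. The sums of both families therefore went in opposite directions, each by less than 2-fold. Each sum mostly reflects a single gene. In the GFP pull-down Gria2 took 87.0% of the AMPA counts and Grin1 93.9% of the NMDA counts. Their own log2 ratios were -0.58 and 0.77, and within each family other members went the other way. The sums are thus not a contrast between the families as sets of genes.

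**Figure D4:**
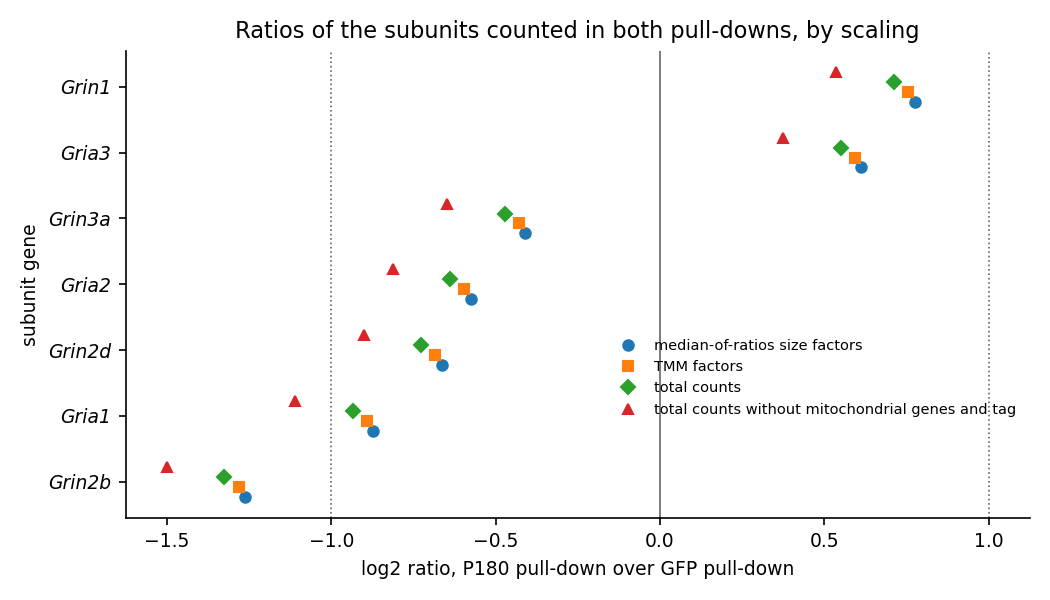
Log2 ratio, P180 pull-down over GFP pull-down, of the 7 subunits counted in both pull-downs under 4 ways of scaling. Every subunit kept its side of 0 in these 4, and Gria1 crossed the 2-fold line (dotted) to -1.11 with total counts taken without mitochondrially encoded genes and the tag.

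The remaining ionotropic glutamate receptor genes were also counted. Of 9 genes (among them Grin2c, Grin3b and the kainate receptor genes), 7 were tested, 5 of them higher by 2-fold or more and 0 lower, where 40.6% of all genes tested were higher. Their median log2 ratio was 4.36 with 1 scaled count added, 3.42 with members at 0 at their bound and 1.86 over the 4 members counted in both pull-downs. Among these, 3 were at 0 in the GFP pull-down, for example Grik4 (76 counts in the P180 pull-down) and Grin2c (23). Counted in both and higher were Grid1 (285 and 49 counts, log2 ratio 3.02) and the kainate receptor subunit Grik1 (105 and 6 counts, 4.61). Grik5, a kainate subunit with 530 and 1314 counts, had a log2 ratio of -0.83, and Grik2 with 352 and 302 counts one of 0.70. Grin3b and Grik3 had no count in either library.

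The metabotropic glutamate receptors, which are G protein-coupled, also went both ways, with 4 of 8 at least 2-fold higher and 2 lower, where 40.6% and 19.9% of all genes tested were. Of the higher ones, Grm6 (10 counts in the P180 pull-down) and Grm7 (23) were at 0 in the GFP pull-down. Grm2 had 648 and 135 counts (log2 ratio 2.75) and Grm3 409 and 403 (0.50). As another family of ligand-gated channels made at the ER, the GABA-A receptor subunits had 5 of 10 tested members higher and 1 lower, also near these shares, with Gabrb1 at a log2 ratio of -1.28. Among the higher GABA-A subunits, 3 were at 0 in the GFP pull-down. With so few genes per family, these shares are described and the families were not tested against each other.

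The auxiliary and assembly proteins of AMPA receptors are themselves membrane proteins of the ER or the cell surface. Of 22, 19 were tested, 9 of them higher by 2-fold or more and 2 lower in the P180 pull-down, with a median log2 ratio of 0.99. The share of higher members, 47.4%, was near the 40.6% of all genes tested, 3 of the 9 (Cacng7, Cacng8 and Gsg1l) were at 0 in the GFP pull-down, and the median over the 16 members counted in both was 0.76. Cnih2, a cornichon that escorts AMPA receptors out of the ER, had 1601 and 1425 counts and a log2 ratio of 0.65. Shisa7 had 987 and 1381 counts (-0.002) and Porcn 1019 and 894 (0.67). Frrs1l, which takes part in AMPA receptor assembly in the ER, had 884 and 587 counts (1.07), and Abhd6 556 and 167 (2.22). The transmembrane AMPA receptor regulatory proteins were mixed: Cacng2 (stargazin) had 478 and 1616 counts and a log2 ratio of -1.27, Cacng3 354 and 156 (1.66) and Cacng4 1357 and 1065 (0.83). Of the kainate receptor auxiliary subunits, Neto2 had 724 and 1819 counts and a log2 ratio of -0.85, and Neto1, which also binds NMDA receptors, 13 and 249 counts and a log2 ratio of -3.78.

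The cytosolic scaffolds and kinases of the receptors had 5 of 25 tested members at least 2-fold higher and 7 lower, against 40.6% and 19.9% of all genes tested, with a median log2 ratio of -0.27. Camk2b, a subunit of the calcium/calmodulin-dependent kinase, had 4368 and 4786 counts and a log2 ratio of 0.35. Epb41l1 (2014 and 2674 counts) stood at 0.07 and Nsf (1640 and 2756) at -0.27. Shank1 (974 and 3373 counts) stood at -1.31, Dlg4, which encodes PSD-95, (169 and 661) at -1.49 and Homer1 (95 and 675) at -2.35. Among the higher members, 4 were at 0 in the GFP pull-down, for example Dlg2 with 56 counts in the P180 pull-down.

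**Figure D5:**
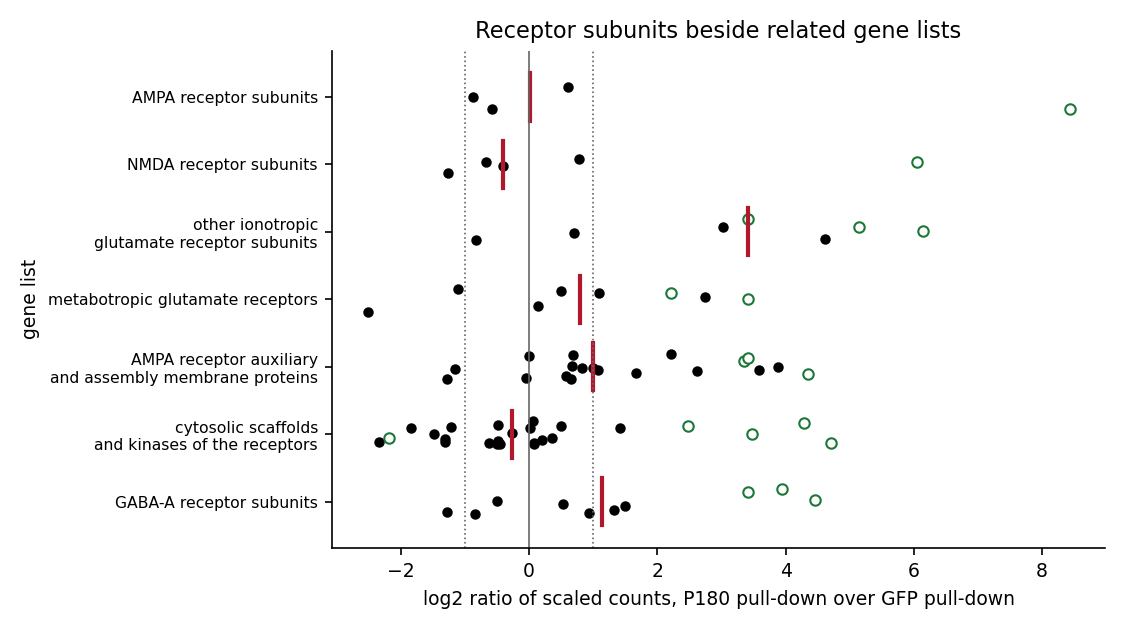
Log2 ratio of scaled counts, P180 pull-down over GFP pull-down, for every tested gene of 7 lists. Each point is a gene, open circles are bounds for genes at 0 in one library, red lines are list medians with those genes at their bound (0.02 for AMPA, -0.41 for NMDA subunits and 3.42 for the other ionotropic subunits), and dotted lines mark 2-fold.

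Markers of other cells were counted too, where 40.6% of all genes tested were higher by 2-fold or more and 19.9% lower. The shares higher in the oligodendrocyte and interneuron lists, 57.1% and 33.3%, lay on either side of that. Markers at 0 in the GFP pull-down passed the minimum through the P180 pull-down alone and had to differ. Of 1921 genes with at least 20 and fewer than 50 counts in the P180 pull-down, 45.0% had none in the GFP pull-down. This share was 24.4% from 50 to below 100 counts, 11.2% from 100 to below 200 and 3.30% from 200 to below 500. Of the markers at 0, Slc1a2 (277 counts), Aldh1l1 (276) and the dividing-cell gene Cdk1 (217) lay in the last range. The list of 10 astrocyte markers had 8 members higher by 2-fold or more in the P180 pull-down and 0 lower, their summed scaled counts were 72787 against 16816, and Slc1a2 and Aldh1l1 had no count in the GFP pull-down. Of 7 tested markers of the oligodendrocyte lineage, 4 were higher and 1 lower (summed 4605 against 2101), with Sox10 and Mbp at 0 in the GFP pull-down and Mog at 0 in both. All 8 markers of dividing cells were higher (993 against 43.1), and 6 of them were at 0 in the GFP pull-down. Of 6 microglia markers 2 were tested, both higher and both at 0 in the GFP pull-down. The 10 neuronal markers had 1 member higher and 1 lower and a median log2 ratio of -0.17 (45342 against 47442), and 2 of 6 tested interneuron markers were higher and 1 lower (6117 against 3936), with Lhx6 at 0 in both libraries. The label of the culture names neurons. Of the neuronal markers, Tubb3 had 15848 and 20258 counts in the P180 and GFP pull-downs and Syn1 5507 and 9863, but Nefl only 164 and 328. The astrocyte markers Apoe (36460 and 11166) and Slc1a3 (19542 and 5961) exceeded Tubb3 in the P180 pull-down. In the GFP pull-down both were below Tubb3. Whether RNA from other cell types takes part in the ratios of Gria4, Grin2a or the other subunits was not tested, and in bulk RNA more cells of a type cannot be told apart from more RNA per cell.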

How the data were processed

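The authors made adapted CEL-Seq2 libraries, which tag 3′ ends, aligned read 2 to mRatBN7 with STARSolo (version 2.7.10a in the submitters' processing notes), dropped reads that fit several places equally well and deposited raw counts per gene. Dropping such reads lowers the count of a gene whose 3′ end has a near-identical copy, in both pull-downs alike. Whether counting used molecular identifiers or strand, how old the cultures were and how the constructs were delivered is not given in the sources used here. In RefSeq (GRCr8, where all 9 members matched; used for names only, as the build differs) Grin1 overlaps Lrrc26, Grin3a overlaps Ppp3r2 and Grin2d overlaps Grwd1, which had 0 and 0, 0 and 0, and 16 and 0 counts in the P180 and GFP pull-downs.

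From there, 92 spike-in rows were left out, and median-of-ratios size factors, ratios with Clopper-Pearson intervals, Poisson and binomial intervals and conditional exact odds ratios were computed in Python 3.11.15 (numpy 2.4.6, pandas 2.3.3, scipy 1.17.1) and TMM factors in R 4.3.3 with edgeR 4.0.16. The test the authors ran over all their libraries needs replicates and was not repeated; 2 further columns of counts, by their names second replicates, could be tied to none of the samples used here and were not used. Members and lists were chosen with earlier results of these data known. Named genes are mainly the members and genes from the lists, and this choice did not follow abundance throughout. The genes without a GFP count named beside Gria4 were chosen after their values were seen. A planned description of protein features was not made, as no protein sequences were used here. The steps were tested on simulated Poisson counts. These hold counting error only, so that test does not bear on variation between libraries. Some genes of the lists are counted but not reported here by name.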

Additional observations from a re-analysis of the deposited data

How the results depend on the processing

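The alternatives were TMM factors, total counts with and without the mitochondrially encoded genes and EGFP_avitag, size factors without that row, other filters on counts, thinning of the GFP pull-down, other floors, added counts and fold thresholds. All 9 log2 ratios of single subunits kept their sign under each alternative that gave a value; of 69 such values, 60 stayed within the counting interval, 1 lay above it and 8 below. With total counts taken without mitochondrially encoded genes and EGFP_avitag, all ratios fell by 0.24 on the log2 scale. Then 2 subunits (Grin2b and Gria1) were at least 2-fold lower, where 24% of all genes were, and 2 were higher, against 37.4%. The median of the subunits was -0.64, and the summed AMPA and NMDA subunits stood at -0.56 and 0.49. With plain total counts these sums were -0.38 and 0.67. When a mean scaled count of 100 was required and size factors were recomputed from those genes, 6 subunits were left. Of these, 1 (Gria4) was higher and 1 (Grin2b) lower by 2-fold. Of all genes at that mean, 23.8% were higher and 21.5% lower. The median of the subunits changed sign to 0.0689, beside 0.0210 over all such genes, and the AMPA sum was -0.27. At a 1.5-fold threshold 4 subunits were higher and 3 lower, against 47.4% and 27.4% of all genes, and at 4-fold 2 were higher and 0 lower, against 30.1% and 8.51%. With a floor of 1 count the bounds of Gria4 and Grin2a rose to 10.01 and 7.63 on the log2 scale; with the GFP pull-down thinned they were 8.01 and 5.63, by construction. No paired analysis was possible because only 1 library of each group could be mapped to a sample; the further columns that read as second replicates were not used. With 1 library per group, depth limits Grin2d and Grin3a most.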
